A study of Mus musculus with 51 samples.

Results

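Gene expression in the granular layer of the dentate gyrus (DG) was compared between rTg4510 mice and double-negative (DN) littermates, on 12 of the 51 Affymetrix HT-MG-430A arrays of the study. The arrays were chosen by their labels: 6 DG arrays were labelled rTg4510 and 6 DN, each from a different mouse, and all mice were labelled female and 4.5 months old. The mice came from TRE-htau(P301L) breeders on FVB/N crossed to CaMKIIα-tTA breeders on another inbred strain. rTg4510 mice carried both transgenes: the CaMKIIα promoter, active in forebrain excitatory neurons, drives the tTA activator, which turns on human tau with the P301L mutation. DN mice carried neither, so that the genotypes differed by the tTA transgene as well as by tau. The 5 DG arrays of tTA littermates, which carried the activator alone, and the CA1 and CA3 pyramidal layers of the same mice served for comparison. The comparison asks what both transgenes together changed in these cells at this age.

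Granule cells are the principal excitatory neurons of the DG. They receive the perforant path from the entorhinal cortex and send mossy fibres to CA3, and they differ from pyramidal cells in transcription factors such as Prox1 and in calcium-binding and synaptic proteins. In rTg4510 mice tau accumulates in forebrain neurons and neurons are later lost. The tau transgene was built in a vector with noncoding sequence of the mouse prion gene Prnp, which makes the Prnp probe sets a check of the genotype labels.

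With all 12 arrays, 0 of 22626 probe sets passed the test for a difference between rTg4510 and DN (limma, Benjamini-Hochberg adjusted p at 0.05, 0% called, lowest adjusted p 0.967), and the methods' Fisher's LSD test also called 0. At an unadjusted p of 0.05, 1070 probe sets differed (4.73%), 479 of them higher (2.12%) and 591 lower (2.61%) in rTg4510. The Prnp signal went against the label on 3 of these arrays, those labelled DN mouse 4, DN mouse 5 and rTg4510 mouse 3. Without them, on 5 rTg4510 and 4 DN arrays, 16 probe sets passed (0.0707%). Of these, 12 (0.053%) were lower in rTg4510: those of Doc2b, Cxcl12, Ptgs2, Trpc6, C1ql3, Arpp21, Klf13, Btg1, Dsg2 and Spata13. The other 4 (0.0177%) were higher, 2 of Prnp and 1 each of Car4 and Hpcal1. At an unadjusted p of 0.05, 643 probe sets were higher (2.84%) and 873 lower (3.86%), and the signals of the 5 and the 4 arrays did not overlap for 278 higher (1.23%) and 312 lower ones (1.38%).

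The label conflict is given first, since every later value rests on it. All values are deposited signals on the log2 scale unless stated. The Prnp probe set 1416130_at gave 8.02, 7.46, 7.76 and 7.70 on the DN arrays of mice 1, 2, 3 and 6, and 9.76, 9.92, 9.73, 10.26 and 10.11 on the rTg4510 arrays of mice 1, 2, 4, 5 and 6. The array labelled DN mouse 4 read 9.98 and that labelled DN mouse 5 read 9.93, both within the range of the other rTg4510 arrays. The array labelled rTg4510 mouse 3 read 7.34, below every DN array, and the tTA arrays read 7.82 to 8.22. The probe set 1448233_at placed the same 3 arrays on the same sides, with 10.40, 10.59 and 9.07 against 9.19 to 9.64 on the other DN arrays and 10.19 to 10.66 on the other rTg4510 arrays.

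The X-inactivation transcript Xist, on in female cells, also set an array apart. Its probe set 1436936_s_at read 2.50 on the array labelled rTg4510 mouse 3 and 9.09 to 10.26 on the other DG arrays, while the Y-linked gene Eif2s3y was low on all of them, at no more than 1.96. In the pyramidal layers Xist was low on the arrays of another label, DN mouse 5, at 2.49 in CA1 and 4.06 in CA3. The Prnp signals of these arrays, 8.12 and 8.55, were near those of other DN arrays of their layer, and those of rTg4510 mouse 3, 10.11 in CA1 and 9.69 in CA3, were in the range of the other rTg4510 arrays. Prnp of DN mouse 4 was high in CA1 and CA3 too, at 10.44 and 9.65. No array was moved to another group. The labels were kept for the 12 arrays, and the called genes are given with and without the 3 arrays. In CA1 and CA3 the same mice were left out, although Prnp of DN mouse 5 and rTg4510 mouse 3 went with the label there. Because Prnp chose the arrays left out, its values without them are a description and no test.

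In median signal and correlation the DG arrays resembled each other. Their median signals were 2.97 to 3.12 and their correlations with the other DG arrays 0.925 to 0.983, the lowest on the array of rTg4510 mouse 5, and no pair was identical. Granule cell markers averaged 5.91 to 7.31 on the 17 DG arrays, against 3.46 to 4.84 in CA1 and 3.54 to 4.43 in CA3. The 3′ minus 5′ actin signal, which follows RNA quality and amplification, was lower in rTg4510 (−0.676 ± 0.123, SD, n = 6) than in DN (−0.456 ± 0.121, SD, n = 6; exact permutation test, two-sided, p = 0.0152, adjusted over 4 measures 0.0606). Without the 3 arrays it was −0.694 ± 0.128 (SD, n = 5) in rTg4510 and −0.442 ± 0.074 (SD, n = 4) in DN. The same permutation test gave p = 0.0159 (adjusted 0.0635), the smallest p possible with 5 and 4 arrays. These groups did not overlap, at −0.893 to −0.579 in rTg4510 and −0.525 to −0.346 in DN. The part of the actin measure in the differences below was not tested.

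**Figure D1:**
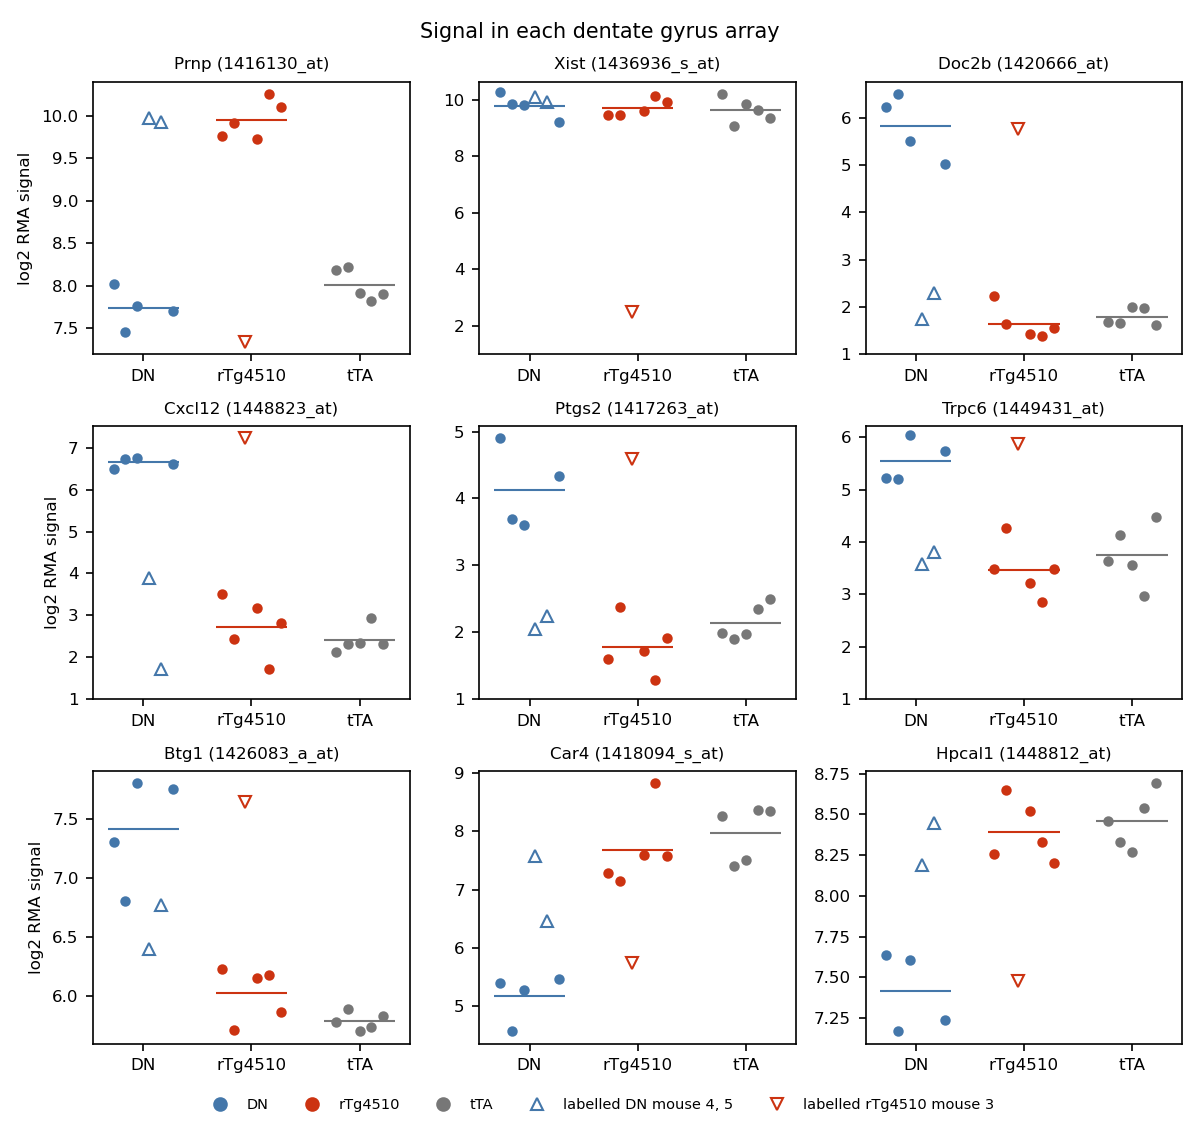
Log2 RMA signal of 9 probe sets (vertical axis) on each DG array by labelled genotype. Points are mice, lines are means of the filled points, and open triangles are the 3 arrays whose Prnp went against the label. Open triangles labelled DN sit at or near the rTg4510 points for Prnp, Doc2b, Ptgs2, Trpc6 and Hpcal1, and the triangle labelled rTg4510 sits at or near the DN points in all panels but Xist, where it alone is low.

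Doc2b, a calcium sensor that promotes spontaneous and asynchronous transmitter release, was lower in rTg4510. Probe set 1420666_at read 6.23, 6.51, 5.51 and 5.02 on the 4 DN arrays and 2.23, 1.64, 1.43, 1.38 and 1.56 on the 5 rTg4510 arrays. The groups were far apart, and all rTg4510 signals lay below the array medians, where a signal may be background, so that the difference can understate the change. The difference was −4.17 ± 0.28 (SE; limma adjusted p = 2.01e-05). With all 12 arrays the DN arrays ran from 1.74 to 6.51 with a median of 5.26, and the rTg4510 arrays from 1.38 to 5.77 with a median of 1.60, so that the groups overlapped through the 3 arrays. The difference was then −2.21 ± 0.85 (adjusted p = 0.967). The second Doc2b probe set, 1420667_at, fell by 3.56 (SE 0.36, adjusted p = 0.000891) without the 3 arrays.

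Cxcl12, a chemokine that guides the migration and placement of granule cells and signals through Cxcr4, was lower as well. Its probe set 1448823_at read 6.50, 6.73, 6.75 and 6.62 on the 4 DN arrays and 3.50, 2.44, 3.18, 1.72 and 2.81 on the 5 rTg4510 arrays, a difference of −3.92 ± 0.29 (limma adjusted p = 3.18e-05). The DN arrays lay within 0.25 of each other and every rTg4510 array was lower. The arrays labelled DN mouse 4 and DN mouse 5 read 3.89 and 1.72, and that labelled rTg4510 mouse 3 read 7.24, so that the difference over all 12 arrays was −1.89 ± 0.92 (adjusted p = 0.967). The other Cxcl12 probe set, 1417574_at, differed by −0.48 (adjusted p = 0.915) and did not share this pattern.

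Ptgs2, the inducible cyclooxygenase that neurons switch on with activity, read 4.90, 3.69, 3.60 and 4.34 on the 4 DN arrays and 1.59, 2.37, 1.72, 1.29 and 1.91 on the 5 rTg4510 arrays at probe set 1417263_at. The groups did not overlap, and the difference was −2.36 ± 0.28 (limma adjusted p = 0.00438; −1.23 with all arrays). The second probe set of Ptgs2, 1417262_at, differed by −1.47 with an adjusted p of 0.483.

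Trpc6, a receptor-operated cation channel and a granule cell marker, read 5.22, 5.21, 6.05 and 5.74 on the DN arrays and 3.49, 4.26, 3.21, 2.86 and 3.48 on the rTg4510 arrays. Every rTg4510 array was below every DN array, and the difference was −2.10 ± 0.33 (limma adjusted p = 0.0319; −1.07 with all arrays). C1ql3, a secreted C1q-like protein of the synapse and also a granule cell marker, fell at probe set 1451620_at from 7.88, 7.38, 7.10 and 7.58 to 5.87, 4.89, 5.48, 5.57 and 6.59. Here too the groups did not overlap, with a difference of −1.80 ± 0.29 (adjusted p = 0.0411, −1.05 with all arrays), and probe set 1453578_at, which matches C1ql3 and Pter, fell by 1.84 (SE 0.28, adjusted p = 0.0319). The brightest C1ql3 probe set, 1425175_at, differed by −1.66 with an adjusted p of 0.125.

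Among regulators of signalling and growth, Arpp21, a cAMP-regulated phosphoprotein of neurons, read 6.20, 6.11, 6.98 and 7.01 on the DN arrays and 4.82, 3.45, 3.82, 3.90 and 4.88 on the rTg4510 arrays. The gap between the groups exceeded 1 on the log2 scale, and the difference was −2.40 ± 0.33 (limma adjusted p = 0.0132). Arpp21 was also among the smallest unadjusted p-values with all 12 arrays, at −1.78 ± 0.40 (adjusted p = 0.967). The growth-restraining gene Btg1 fell from 7.30, 6.80, 7.80 and 7.75 to 6.23, 5.71, 6.15, 6.18 and 5.86, by 1.39 (SE 0.20, adjusted p = 0.0144; −0.84 with all arrays), with no overlap. The zinc finger transcription factor Klf13 fell from 5.10, 5.54, 4.67 and 5.06 to 3.72, 3.86, 3.21, 3.89 and 3.37, by 1.48 (SE 0.21, adjusted p = 0.0132; −0.73 with all arrays), again with no overlap.

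The 2 remaining genes that fell were dimmer. Dsg2, a desmosomal cadherin, fell by 1.30 (SE 0.16, adjusted p = 0.00553; −0.91 with all arrays), from 2.83 to 3.58 on the DN arrays to 1.82 to 2.0 on the rTg4510 arrays. Spata13, a guanine nucleotide exchange factor for small GTPases, fell by 1.97 (SE 0.31, adjusted p = 0.0319; −0.72 with all arrays), from 3.25 to 4.78 on the DN arrays to 1.51 to 2.49 on the rTg4510 arrays. Both genes had signals near the lowest of the arrays in rTg4510.

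Car4, a carbonic anhydrase anchored to the outer face of the membrane, rose. Probe set 1418094_s_at read 5.40, 4.57, 5.28 and 5.46 on the DN arrays and 7.28, 7.14, 7.59, 8.82 and 7.58 on the rTg4510 arrays, a difference of +2.50 ± 0.34 (limma adjusted p = 0.0132; +1.57 with all arrays). All rTg4510 arrays were higher, and the second probe set, 1448949_at, differed by +2.22 with an adjusted p of 0.0843. Hpcal1, a neuronal calcium sensor of the visinin-like family, rose from 7.64, 7.17, 7.61 and 7.24 to 8.26, 8.65, 8.52, 8.33 and 8.20, by +0.98 ± 0.15 (adjusted p = 0.0335; +0.52 with all arrays). Its groups were separate but close.

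The calls without the 3 arrays depended on the fit. A fit of the rTg4510 and DN arrays alone called 5 probe sets and the methods' test on linear signals 6, each sharing 4 with the 16, and leaving out DN mouse 1, 3 or 6 left 9, 7 or 10. Both Doc2b probe sets passed in all the fits tried except that on linear signals and that with 1 probe set per gene, which held 1 of them. Over the 14 arrays left out in turn, the call was lost 13 times for C1ql3 (1451620_at), 12 for Hpcal1 and 10 for Trpc6. It was lost 8 times each for 1453578_at and Spata13, and 1 to 3 times for Car4, Arpp21, Klf13 and Btg1. Cxcl12, Doc2b, Ptgs2 and Dsg2 kept theirs each time.

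The 3 arrays left out were read against the 14 called probe sets other than those of Prnp, by the side of the midpoint between the means of the remaining groups. The array labelled DN mouse 4 was on the rTg4510 side for 11 of the 14, that labelled DN mouse 5 for 10, and that labelled rTg4510 mouse 3 on the DN side for 14. These counts describe the arrays and were not tested.

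**Figure D2:**
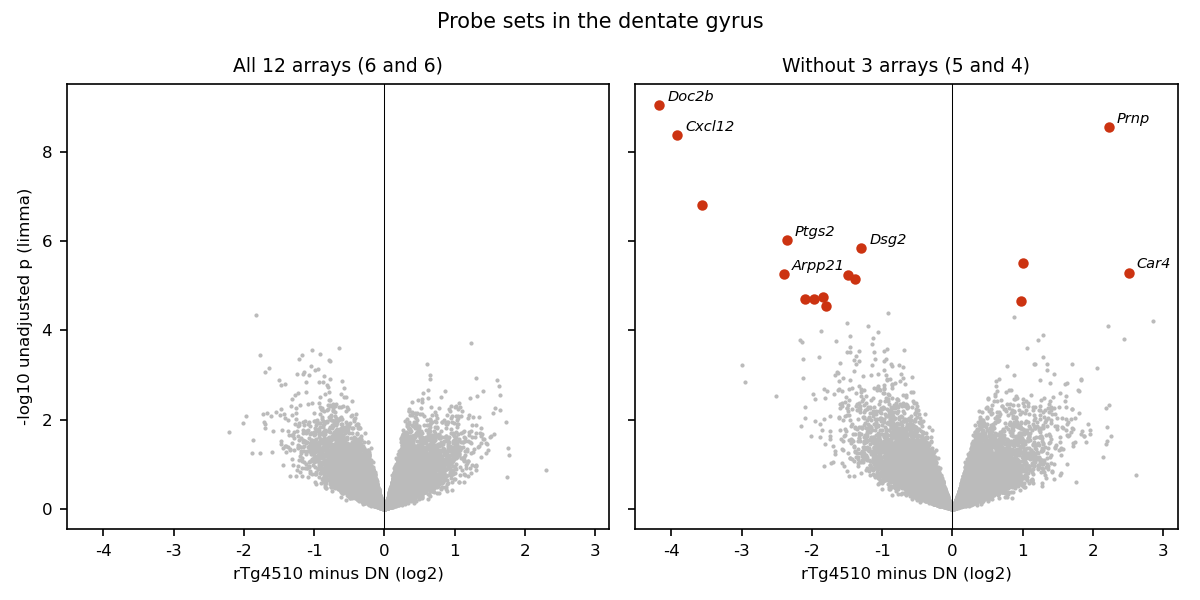
Difference between rTg4510 and DN (log2, horizontal axis) and −log10 of the unadjusted limma p (vertical axis) for 22626 probe sets, with all 12 arrays and without the 3 arrays. Red points passed an adjusted p of 0.05: 0 with all arrays and 16 without the 3 arrays, 12 of them lower in rTg4510.

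The tTA arrays give the values of mice with the activator alone. For 10 of the 14 probe sets all 5 tTA arrays were on the rTg4510 side. Doc2b (1420666_at) read 1.69, 1.66, 2.0, 1.97 and 1.61 in tTA, so that tTA was 4.03 below DN (SE 0.28, limma adjusted p = 1.75e-05) and rTg4510 differed from tTA by −0.14 ± 0.26. Cxcl12 read 2.13 to 2.93 in tTA, −4.25 ± 0.29 against DN (adjusted p = 1.75e-05), and rTg4510 minus tTA was +0.33 ± 0.28. The tTA arrays were thus near those of rTg4510 and apart from DN for both genes.

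Car4 was 2.80 higher in tTA than in DN (SE 0.34, adjusted p = 0.00604), with rTg4510 minus tTA at −0.29 ± 0.32, and Btg1 was 1.63 lower (SE 0.20, adjusted p = 0.00604), with rTg4510 minus tTA at +0.24 ± 0.19. Klf13 and C1ql3 lay between the other genotypes in tTA: rTg4510 differed from tTA by −0.70 ± 0.19 and −0.91 ± 0.28 (1451620_at), and tTA from DN by −0.79 ± 0.21 and −0.90 ± 0.29, with no adjusted p under 0.05 in either step. Over all probe sets without the 3 arrays, 13 differed between tTA and DN, and 2 between rTg4510 and tTA, both of Prnp (+1.95 and +0.94), a description and no test. These comparisons share the DN or the rTg4510 arrays, and none of their adjusted p-values compares them with each other. Over all 17 DG arrays both gave 0 calls, with 1179 probe sets at an unadjusted p of 0.05 between tTA and DN and 1293 between rTg4510 and tTA.

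Of the genes at the transgene insertion sites, Fgf14, an intracellular modulator of sodium channels in which the tau transgene of this line is integrated, read 8.28, 7.98, 7.95 and 8.36 on the 4 DN arrays and 7.67, 7.23, 7.82, 7.07 and 7.19 on the 5 rTg4510 arrays at its brightest probe set, 1435747_at. The groups did not overlap, and the tTA arrays, at 7.92 to 8.45, lay with DN. The difference from DN was −0.75 ± 0.19 (limma adjusted p = 0.331; −0.46 with all arrays), that of tTA from DN −0.07, and that of rTg4510 from tTA −0.68, so that Fgf14 did not pass. Its other probe set, 1449958_a_at, differed from DN by −1.34 (adjusted p = 0.217), and tTA from DN by −0.81. Of 9 measured genes of the transgenes and their insertion sites, none passed other than Prnp, which chose the arrays. The mouse tau gene Mapt differed by −0.25 and the CaMKIIα gene Camk2a by +0.09 without the 3 arrays (adjusted p = 0.939 and 0.931).

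The same contrast was set beside the pyramidal layers of these mice. The Cxcl12 probe set 1448823_at was dim there in all genotypes, at 1.33 to 3.40 in CA1 and 1.60 to 3.64 in CA3, and rTg4510 differed from DN by −0.63 in CA1 and +0.52 in CA3 without the 3 mice. The difference of the contrast between the DG and the mean of the pyramidal layers was −3.87 ± 0.26 (limma on within-mouse differences, adjusted p = 1.98e-05). With signals near the lowest of the arrays in CA1 and CA3, this value restates the DG difference of the probe set, and a fall in the pyramidal layers could not have been measured. The probe set 1417574_at was brighter there, at 2.63 to 7.42 in CA1 and 2.63 to 6.45 in CA3, and its contrast did not pass as different between the layers (−1.50 ± 0.65, adjusted p = 0.843). Ntng1, a netrin-like axon guidance protein anchored to the membrane, was the other gene that passed this test, at −3.17 ± 0.35 (adjusted p = 0.00536). Its contrast was −2.15 in the DG, +0.86 in CA1 and +1.18 in CA3, and it passed in none of these layers alone. The layer difference of Ntng1 thus holds opposite shifts in the pyramidal layers as well as the DG value. The Cxcl12 and Ntng1 probe sets were the 2 of 22626 called (0.00884%), and with all 17 mice the test called 0, with 1223 at an unadjusted p of 0.05.

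Doc2b varied within DN in CA1, where 1420666_at read 1.93, 1.84, 5.40 and 6.40 in mice 1, 2, 3 and 6, and was dim in CA3, at 1.45 to 1.96. On the CA1 arrays of these mice CA1 markers averaged 3.93, 4.20, 6.97 and 6.85, and CA3 markers 5.40, 6.66, 4.66 and 4.79. The part of the captured cells in the CA1 contrasts and in the layer differences was not tested. The Doc2b contrast differed between the layers by −3.16 ± 0.62 (limma adjusted p = 0.247), which did not pass. Car4 rose in CA1 as well, by +2.99 ± 0.35 without the 3 mice (adjusted p = 0.0212), where it was the single probe set called, and by +2.72 with all mice (adjusted p = 0.0303). In CA3 it differed by +1.67 ± 0.29 (adjusted p = 0.233), and its DG contrast differed from that of the pyramidal layers by +0.17 ± 0.40 (adjusted p = 0.972).

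**Figure D3:**
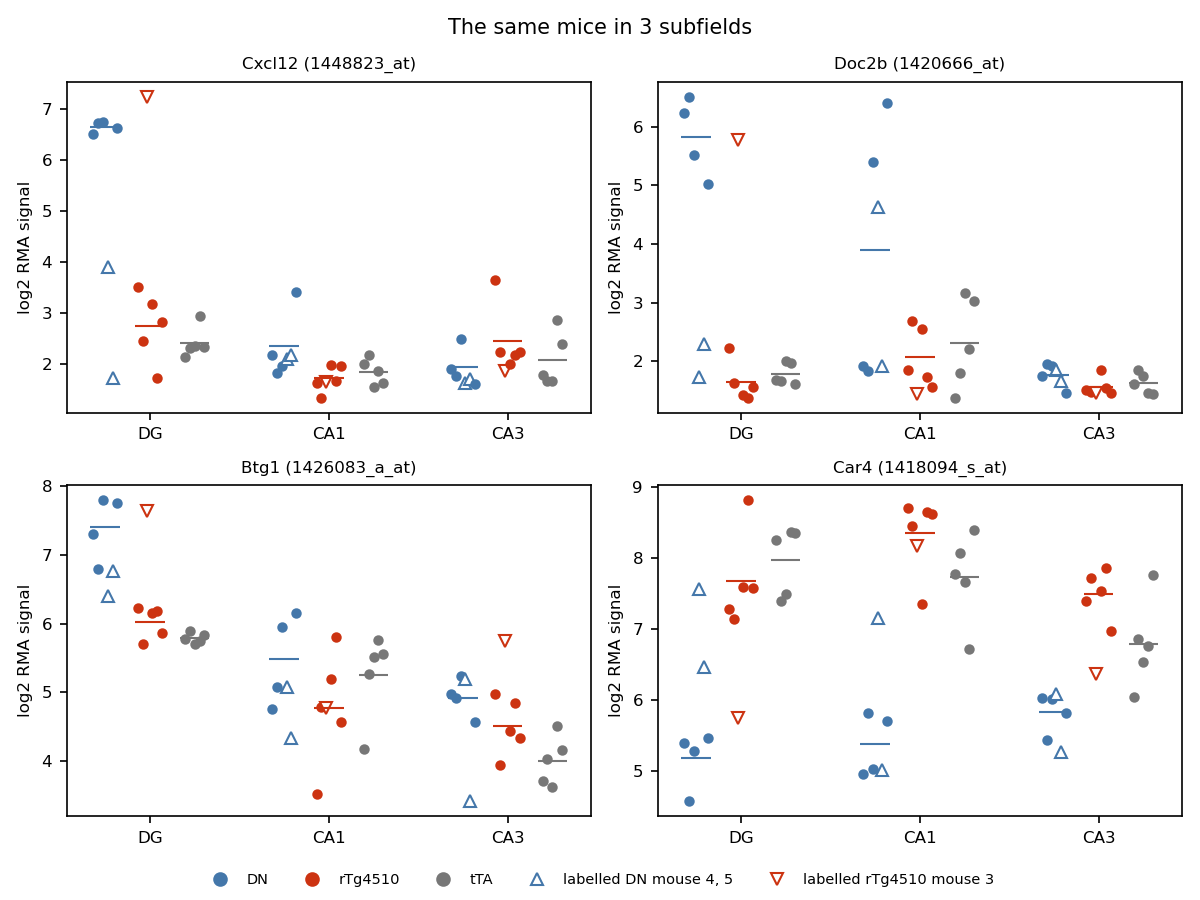
Log2 RMA signal of Cxcl12 (1448823_at), Doc2b, Btg1 and Car4 (vertical axis) in the DG, CA1 and CA3 by labelled genotype. Points are mice, lines are means of the filled points, and open triangles are the 3 mice whose DG Prnp went against the label. Cxcl12 probe set 1448823_at is above 6 only in the DG, on 4 DN arrays and the array labelled rTg4510 mouse 3, whereas Car4 is higher in rTg4510 and tTA than in most DN arrays of each layer.

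Sequence upstream of the genes that fell is shown because Ptgs2, Bdnf and other activity genes are known targets of the cAMP response element binding protein CREB. The core letters TGACG of its element, or CGTCA on the other strand, were searched in the 250 bases before each start site in RefSeq promoters of GRCm38.p6. They were present for 5 of the 8 genes that fell and have a promoter entry (Doc2b and Dsg2 have none), and for 1 of the 3 that rose. Of all 27025 genes with an entry, 19.8% held them. A gene counted if any of its start sites held the letters, as Arpp21 did at 2 of 9. C1ql3, Ptgs2 and Spata13 held none, and the gene with the letters that rose was Prnp, which chose the arrays. The runs below are from genes with a match. Capitals mark the letters searched, and each run ends at the base before the start site.

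Cxcl12 (chr6:117168285-117168534, plus strand): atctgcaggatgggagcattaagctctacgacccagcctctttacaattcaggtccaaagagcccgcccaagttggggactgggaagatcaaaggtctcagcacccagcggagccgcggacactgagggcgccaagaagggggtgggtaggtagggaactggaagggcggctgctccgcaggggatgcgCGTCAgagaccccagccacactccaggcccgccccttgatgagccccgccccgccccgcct
Trpc6 (chr9:8543892-8544141, plus strand): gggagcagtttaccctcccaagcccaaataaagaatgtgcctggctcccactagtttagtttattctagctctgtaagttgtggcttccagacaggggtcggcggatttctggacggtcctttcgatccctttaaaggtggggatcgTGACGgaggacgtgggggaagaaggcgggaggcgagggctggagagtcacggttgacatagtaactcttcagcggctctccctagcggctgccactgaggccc
Klf13 (chr7:63938916-63939165, minus strand): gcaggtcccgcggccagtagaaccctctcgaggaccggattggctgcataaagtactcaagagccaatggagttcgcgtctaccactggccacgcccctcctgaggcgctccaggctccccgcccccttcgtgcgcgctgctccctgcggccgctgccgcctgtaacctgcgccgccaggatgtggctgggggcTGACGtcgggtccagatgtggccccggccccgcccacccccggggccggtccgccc
Btg1 (chr10:96616751-96617000, plus strand): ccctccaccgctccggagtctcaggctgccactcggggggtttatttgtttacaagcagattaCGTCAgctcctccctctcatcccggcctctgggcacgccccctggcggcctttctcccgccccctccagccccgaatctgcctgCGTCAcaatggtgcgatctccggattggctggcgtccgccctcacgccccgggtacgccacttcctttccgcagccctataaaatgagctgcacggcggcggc

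Cxcl12, Trpc6 and Klf13 held the letters at 61, 103 and 56 bases before the start, and Btg1 at 187 and 103 bases. The window of Ptgs2 held none, which says only that these letters are not within it. A match describes letters and is neither a bound site nor a cause.

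Gene lists of cell types and functions were described by 1 probe set per gene, the brightest, beside all 11955 genes. Over all genes the median difference was 0.02 with all arrays and 0.03 without the 3, and 53.2% and 53.9% were above 0. At an unadjusted p of 0.05, 2.07% of genes were higher and 2.62% lower with all arrays, and 2.91% and 4.17% without the 3. Fewer cells of a type and less RNA per cell cannot be told apart in captured tissue.

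Granule cell markers were mostly lower in rTg4510. Of 14 measured, 11 were lower with all arrays (median −0.41, −0.27 without rTg4510 mouse 4) and 11 without the 3 (median −0.74), of which 1 passed, Trpc6. Without the 3, 11 were lower in tTA than in DN (median −0.38), and 9 in rTg4510 than in tTA (median −0.24). Stxbp6, a syntaxin-binding protein, read 6.15, 5.57, 5.93 and 6.73 on the 4 DN arrays and 4.49, 4.42, 4.93, 4.19 and 4.23 on the 5 rTg4510 arrays, with no overlap (−1.64, limma adjusted p = 0.285; −0.91 with all arrays). Prox1, which specifies granule cell identity, read 7.07, 6.00, 7.10 and 6.48 against 6.20, 6.15, 4.36, 4.74 and 6.24 (−1.12, adjusted p = 0.657). Its 2 lowest arrays were those of rTg4510 mice 4 and 5, and the other 3 lay within the DN range. Calb1, the calcium buffer calbindin, differed by −0.50 at its brighter probe set (adjusted p = 0.791; −0.33 with all arrays). Tdo2, tryptophan dioxygenase, lay the other way, with 2.31 to 2.58 on the 4 DN arrays and 3.14 to 6.01 on the 5 rTg4510 arrays at 1449337_at (+1.96, adjusted p = 0.647; +1.55 with all arrays).

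Of 24 measured genes that neurons induce with activity, 10 were higher and 14 lower with all arrays (median −0.08) and again without the 3 (median −0.09), and 0 passed (limma; 1 higher and 3 lower at an unadjusted p of 0.05 without the 3). Bdnf, the neurotrophin of the granule cell, read 6.09, 5.33, 6.45 and 6.47 on the 4 DN arrays and 5.32, 4.45, 3.91, 3.36 and 4.01 on the 5 rTg4510 arrays. The highest rTg4510 array lay just under the lowest DN array, and the difference was −1.88 with an adjusted p of 0.101 (−0.93 with all arrays). Fos differed by +1.45 (adjusted p = 0.727; +0.85 with all arrays) and Arc by −0.06 (adjusted p = 0.980). Of 13 neuropeptide genes 0 passed (limma; 4 at an unadjusted p of 0.05 without the 3). The opioid precursor Penk read 5.90, 6.55, 8.39 and 7.43 in DN and 4.59, 3.52, 3.96, 5.84 and 2.44 in rTg4510 (−3.00, adjusted p = 0.225; −1.44 with all arrays), and the tTA arrays, at 2.03 to 4.28, were low too. The granin Scg2 differed by −1.67 (adjusted p = 0.298; −1.0 with all arrays).

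Markers of inhibitory interneurons were higher without the 3 arrays in 18 of 20 genes (median +0.31). With all arrays 14 of 20 were higher (median +0.12, from +0.03 without DN mouse 1 to +0.22 without rTg4510 mouse 4). Of these genes 0 passed with limma. At an unadjusted p of 0.05, 6 were higher without the 3, and 1 was higher and 1 lower with all arrays. Reln, the extracellular signal that positions neurons, read 5.27, 6.04, 5.98 and 5.28 on the 4 DN arrays and 6.96, 6.44, 6.95, 6.83 and 7.08 on the 5 rTg4510 arrays. These groups did not overlap (+1.21, adjusted p = 0.125; +0.26 with all arrays), and the arrays labelled DN mouse 4, DN mouse 5 and rTg4510 mouse 3 read 6.80, 7.47 and 4.12. Without the 3 arrays, 15 of the 20 genes were higher in tTA than in DN (median +0.45), and 12 in rTg4510 than in tTA (median +0.04). For Reln, tTA differed from DN by +1.19 and rTg4510 from tTA by +0.02. Npy, neuropeptide Y, differed by +0.83 (adjusted p = 0.647) and by +0.62 with all arrays. Its tTA arrays differed from DN by +0.79, and rTg4510 from tTA by +0.04. Gad2, an enzyme of GABA synthesis, differed by +0.88 (adjusted p = 0.685) and by +0.46 with all arrays. For Gad2, tTA differed from DN by +0.45 without the 3 arrays, and rTg4510 from tTA by +0.43.

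Astrocyte markers were higher in 17 of 20 genes with all arrays (median +0.50, +0.28 without DN mouse 1) and in 18 without the 3 (median +0.64), and 0 passed (limma; 8 higher at an unadjusted p of 0.05 without the 3, 4 with all arrays). Their mean level on an array, as the deviation from the 17-array mean, ran from −1.0 to 0.46 in the 6 DN and from −0.24 to 0.62 in the 6 rTg4510 arrays, so that the groups overlapped. Gfap, the filament protein of reactive astrocytes, spread widely in DN: 3.48, 7.80, 5.76 and 6.20, against 8.30, 7.85, 8.13, 8.57 and 7.35 in rTg4510 at 1426509_s_at. DN mouse 2 read within the rTg4510 range, and the difference was +2.23 with an adjusted p of 0.490, or +1.45 without DN mouse 1. With all arrays it was +1.16. Sox9, an astrocyte transcription factor, differed by +1.44 (adjusted p = 0.493), and Slc1a2, the main glial glutamate transporter, read 9.36 to 9.86 in DN and 9.92 to 10.30 in rTg4510 (+0.64, adjusted p = 0.406; +0.35 with all arrays). Without the 3 arrays, 16 of 20 astrocyte markers were higher in tTA than in DN (median +0.27), and 17 in rTg4510 than in tTA (median +0.41). The part of captured neuropil in these values was not tested.

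Microglia markers were higher in 14 of 24 genes with all arrays (median +0.06, from +0.01 without DN mouse 3 to +0.20 without rTg4510 mouse 6) and in 22 of 24 without the 3 (median +0.41), and 0 passed (limma; 5 higher at an unadjusted p of 0.05 without the 3). The growth factor receptor Csf1r differed by +1.11 (adjusted p = 0.739; +0.69 with all arrays). Without the 3 arrays, 21 of 24 microglia markers were higher in tTA than in DN (median +0.45). Between rTg4510 and tTA, 11 of 24 were higher in rTg4510 (median −0.05). Trem2, a lipid-sensing receptor of microglia, was dim, at 1.62 to 2.62 on all 12 arrays at 1421792_s_at (+0.41, adjusted p = 0.674). The complement gene C4b read 1.41, 2.81, 1.60 and 1.60 on the 4 DN arrays, 3.54, 3.82, 3.94, 5.32 and 1.98 on the 5 rTg4510 arrays, and 5.57 and 4.99 on those labelled DN mouse 4 and DN mouse 5. It differed by +0.38 with all arrays and by +1.86 without the 3 (adjusted p = 0.647), with rTg4510 mouse 6 inside the DN range. For C4b, tTA differed from DN by +1.96 without the 3, and rTg4510 from tTA by −0.10. Spp1, osteopontin, was at 1.09 to 1.70 on the 12 arrays and differed by +0.06 (adjusted p = 0.947). Of 16 complement genes 0 passed (limma; 3 higher at an unadjusted p of 0.05 without the 3).

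Vascular markers were higher in 17 of 21 genes with all arrays (median +0.37) and oligodendrocyte markers in 15 of 16 (median +0.29, but +0.08 without rTg4510 mouse 4 and +0.57 without DN mouse 2), with 0 calls in either (limma; 3 vascular genes higher and 1 lower, and 0 oligodendrocyte genes, at an unadjusted p of 0.05). The oligodendrocyte level on an array ran from −0.54 to 1.17 in DN and from −0.25 to 1.47 in rTg4510. Both groups thus held arrays with much of this signal, as deviations from the 17-array mean. Without the 3 arrays, 14 of 16 oligodendrocyte markers were higher in rTg4510 than in DN (median +0.29). Of the 16, 13 were lower in tTA than in DN (median −0.46), and 15 were higher in rTg4510 than in tTA (median +0.96).

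Among lists of cell function, those of protein synthesis and breakdown were mostly lower in rTg4510. Ribosomal protein genes were lower in 52 of 71 with all arrays (median −0.08) and in 63 of 71 without the 3 (median −0.29), proteasome genes in 25 of 30 and 27 of 30 (medians −0.16 and −0.36), and oxidative phosphorylation genes in 61 and 66 of 86 (medians −0.09 and −0.18). With all arrays, the ribosomal median ran from −0.17 without rTg4510 mouse 3 to −0.0027 without rTg4510 mouse 6, the proteasome median from −0.24 without rTg4510 mouse 1 to −0.04 without rTg4510 mouse 5, and the oxidative phosphorylation median from −0.14 without rTg4510 mouse 4 to −0.04 without DN mouse 6. None of these genes passed (limma; 12 ribosomal, 2 proteasome and 5 oxidative phosphorylation genes were lower at an unadjusted p of 0.05 without the 3). Lysosome genes were higher in 22 of 32 with all arrays (median +0.15, from +0.06 without rTg4510 mouse 6 to +0.24 without rTg4510 mouse 1) and in 24 of 32 without the 3 (median +0.26, 7 higher at an unadjusted p of 0.05, 0 called), with the membrane protein Scarb2 at +0.83 (adjusted p = 0.406). Synapse genes were split, 14 higher and 13 lower with all arrays, and 16 higher and 11 lower without the 3 (median +0.02). The postsynaptic scaffold Dlg4 differed by −0.60 (adjusted p = 0.766) and Homer2, a scaffold of metabotropic receptors, by +1.12 (adjusted p = 0.455; +0.66 with all arrays).

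**Figure D4:**
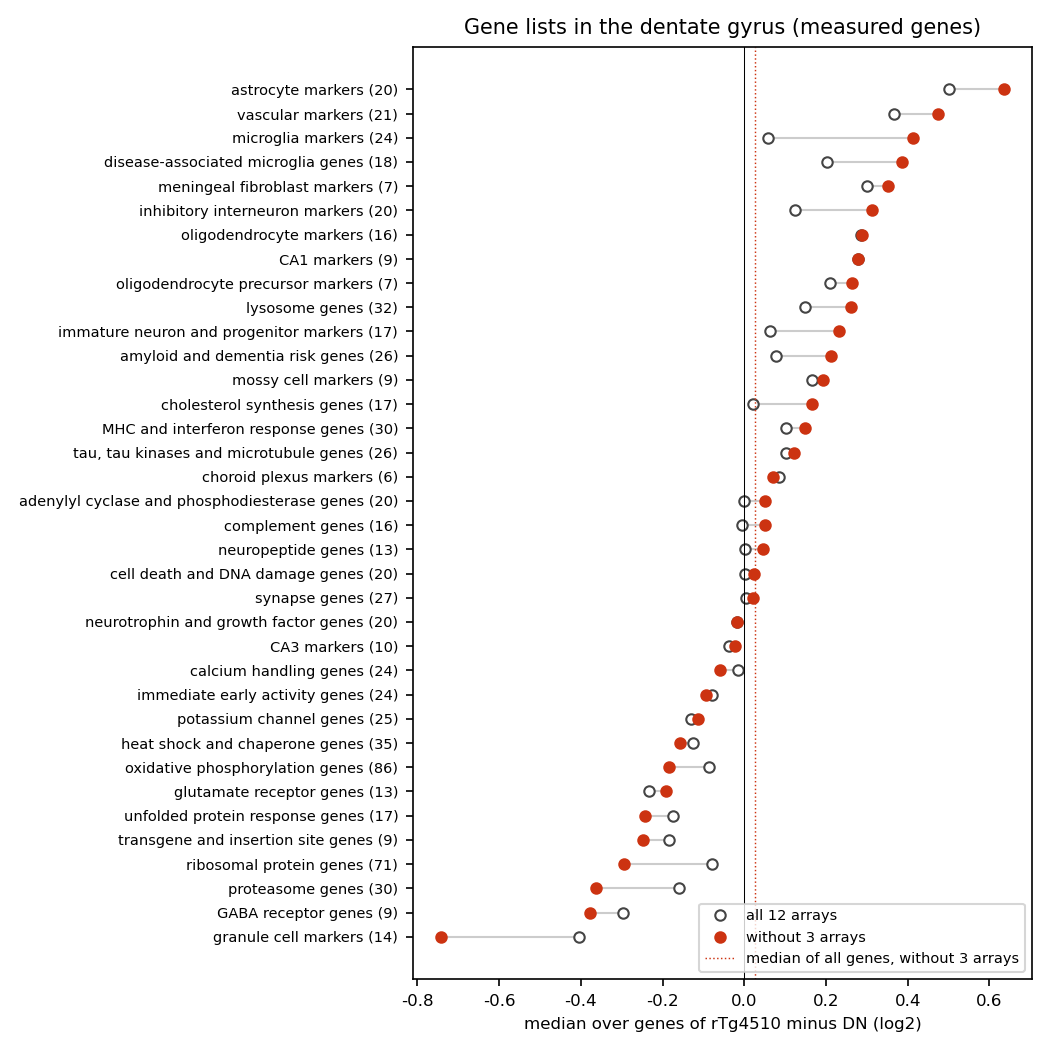
Median over the measured genes of each list of the difference between rTg4510 and DN in the DG (log2, horizontal axis), with the number of genes in brackets. Open points use all 12 arrays and filled points leave out the 3 arrays. Granule cell markers have the lowest medians (−0.41 and −0.74) and astrocyte markers the highest (+0.50 and +0.64).

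With all 12 arrays, the smallest p-values are given as values only. Kdm6a, an X-linked histone demethylase that escapes X inactivation, read 6.07 to 6.85 in DN with a median of 6.49, and 3.60 to 6.27 in rTg4510 with a median of 4.36 (−1.83 ± 0.33, limma adjusted p = 0.967). The array of rTg4510 mouse 6, at 6.27, was alone within the DN range, and without the 3 arrays the difference was −1.90 (adjusted p = 0.202). Pacsin2, which bends membranes in endocytosis, read 7.52 to 8.36 in DN and 6.70 to 7.41 in rTg4510. Adcy9, an adenylyl cyclase, read 4.91 to 6.03 in DN and 3.66 to 5.10 in rTg4510. The first of these 2 did not overlap between groups and the second did. Of all probe sets, 15 were higher (0.0663%) and 22 lower (0.0972%) in rTg4510 with no overlap of the 6 and 6 arrays. Among the higher values, the interleukin receptor gene Il17ra read 3.18 to 3.74 in DN and 3.63 to 4.35 in rTg4510 (+0.61), and the collagen receptor gene Mrc2 1.44 to 2.23 and 1.89 to 2.67.

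Among the probe sets that did not pass without the 3 arrays were the adhesion molecule Ncam2 (−0.92, limma adjusted p = 0.0546), Mrc2 (+0.88, adjusted p = 0.0619), the protease gene Prss23 (+2.85, adjusted p = 0.0736), the transcription factor Tbr1 (+1.29, adjusted p = 0.113) and the neuropeptide Y receptor Npy2r (−1.46, adjusted p = 0.116). Over all 12 arrays the differences were smaller for Ncam2 (−0.61), Prss23 (+1.30), Tbr1 (+0.58) and Npy2r (−0.84). Npy2r read 3.81, 3.13, 4.48 and 4.06 on the 4 DN arrays and 2.19, 2.52, 2.36, 2.66 and 2.30 on the 5 rTg4510 arrays. Prss23 read 3.05, 2.74, 2.55 and 4.67 against 5.44, 6.65, 5.95, 4.99 and 7.47, and Tbr1 7.42, 6.45, 6.43 and 7.06 against 7.94, 8.34, 7.79, 8.25 and 8.34. The groups did not overlap for any of the 3.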

How the data were processed

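RNA of laser-captured DG granular layer and CA1 and CA3 pyramidal layers was amplified (Ovation Pico WTA) and hybridized to HT-MG-430A arrays. The authors deposited RMA signals (background correction, normalization between arrays, a summary per probe set), which the methods call anti-log but which are on the log2 scale. The RMA version and the arrays normalized together are not given in the sources used here. Groups came from the labels. Members, lists and tests were chosen with earlier results of these data known.

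Signals were used as deposited. Without the 90 AFFX probe sets, 22626 were tested with limma 3.58.1 in R 4.3.3 on the 17 DG arrays together, two-sided, with Benjamini-Hochberg adjustment at 0.05. The fit was repeated without 3 arrays, and limma on each mouse's DG signal minus its pyramidal mean tested the layers. Whether the mice are independent beyond their labels is not stated, and their number sets the precision. The platform annotation gave 1 symbol to 18003 probe sets (24 updated), the supplementary sheets to 332, while 317 had several and 3974 none. Named genes were those of the transgenes and their insertion sites, called probe sets, the smallest p-values in each direction where under 10 passed, up to 4 members of each list described by p, subfield markers and genes named in the study's text. Other members and neighbours of the threshold were chosen after their values were seen. The code was tested on simulated data. Alternatives were the methods' Fisher's LSD test on log2 and linear signals, an intensity trend, array weights, leaving out probe sets under the 40th percentile, centring, quantile normalization, other arrays in the fit, 1 probe set per gene and leaving out each mouse.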

Additional observations from a re-analysis of the deposited data

Results flagged for a closer look

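Among 46 groups of 6 arrays examined for a single far array, 13 had one. Chance flags about 1 in 20 groups, but the count is no test: the Prnp values chose the array labelled rTg4510 mouse 3 as one to leave out, the called genes were chosen without it, and probe sets of Prnp, Xist and Doc2b repeat the same gene. The array labelled rTg4510 mouse 3 was the far one in 12 of them: Prnp at 7.34 (1416130_at) and 9.07 (1448233_at), Xist at 2.47 (1427262_at), 1.95 (1427263_at) and 2.50 (1436936_s_at), Doc2b at 5.77 and 5.36, Cxcl12 at 7.24, Ptgs2 at 4.59, Btg1 at 7.64, Dsg2 at 3.89 and Spata13 at 5.58. The remaining array was DN mouse 6, with Xist at 7.25 (1427263_at) against 7.85 to 8.14 in the other DN arrays.

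The rTg4510 minus DN contrast differed between the DG and the pyramidal layers for Cxcl12 (−3.87) and Ntng1 (−3.17) without the 3 mice, by the limma test of the within-mouse differences given above. The Cxcl12 probe set 1448823_at was near the lowest signals in CA1 and CA3 in every genotype, and the probe set 1417574_at gave −1.50 (adjusted p = 0.843). The contrast of Ntng1 passed in no layer alone.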

How the results depend on the processing

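With all 12 arrays the count of 0 calls became 1 with all subfields and the mouse as a random block, 0 to 1 on leaving out each mouse (1 without rTg4510 mouse 3 or rTg4510 mouse 6) and 16 without the 3 arrays; the other alternatives also gave 0. Without the 3 arrays, under alternatives chosen after seeing the data, the 16 became 6 with the methods' test on linear signals, 5 with the rTg4510 and DN arrays alone, 6 with 1 probe set per gene, and 7 to 16 on leaving out each mouse (9, 7 and 10 without DN mouse 1, 3 and 6). The fit with all subfields called 23, of which 9 were among the 16. Leaving out the 3 arrays also moved the calls of rTg4510 against tTA from 0 to 2 (both of Prnp, which chose the arrays), of tTA against DN from 0 to 13, of CA3 from 0 to 1 (Prnp again), and of the layer difference from 0 to 2. The layer difference gave 0 to 1 over single mice left out (1 without rTg4510 mouse 6), and 2 to 3 without the 3 mice. List medians moved by more than the spread between mice to −0.74 (granule cell), +0.41 (microglia) and +0.21 (amyloid and dementia risk genes) without the 3 arrays, and to +0.38 (complement) and −0.18 (cell death and DNA damage) without dim probe sets. Signs were followed for the 16 called probe sets, those of Gfap, Bdnf, Npy, Kdm6a and Prox1, and the Cxcl12 and Ntng1 layer differences. None of these changed sign, and other named probe sets were not followed. The medians of 12 lists changed sign under at least 1 alternative. Among them were immediate early (+0.01 without DN mouse 3), synapse (−0.01 without DN mouse 2) and cholesterol synthesis genes (−0.10 without rTg4510 mouse 1). No paired analysis was possible because the genotypes were compared in different mice. Signals below the array median may be background, and the causes of these changes were not tested.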

Other observations

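Lists of receptors, channels and stress responses in the DG held 0 calls with limma, with or without the 3 arrays. Without them, GABA receptor genes were lower in rTg4510 in 6 of 9 (median −0.38; −0.30 with all arrays; 2 lower at an unadjusted p of 0.05), with Gabrb2, a subunit of the synaptic receptor, at −1.32 (adjusted p = 0.503; −0.82 with all arrays) and Gabrd, the subunit of the extrasynaptic receptor of granule cells, at −1.57 (adjusted p = 0.729; −0.87 with all arrays). Glutamate receptor genes were lower in 9 of 13 (median −0.19; −0.23 with all arrays, −0.07 without rTg4510 mouse 4; 1 lower at that p), with the kainate receptor subunit Grik3 at −0.51 (adjusted p = 0.490). Genes of the unfolded protein response were lower in 13 of 17 (median −0.24; −0.17 with all arrays, −0.11 without rTg4510 mouse 6; 2 lower at that p), with Manf, a secreted protein of stressed endoplasmic reticulum, at −1.02 (adjusted p = 0.490). Heat shock and chaperone genes were lower in 25 of 35 (median −0.16; −0.13 with all arrays, −0.02 without rTg4510 mouse 5; 2 lower and 1 higher at that p), and the small heat shock protein Hspb8 was at +1.63 (adjusted p = 0.647).

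Of growth factors, Tgfb2 read 8.97, 8.59, 8.87 and 8.58 on the 4 DN arrays and 7.42, 7.97, 7.63, 8.47 and 8.0 on the 5 rTg4510 arrays, with no overlap (−0.85, limma adjusted p = 0.362; −0.51 with all arrays). Dementia risk genes were higher in 15 of 26 (median +0.21; +0.08 with all arrays), with the secreted chaperone Clu at +0.76 (adjusted p = 0.420; +0.46 with all arrays) and Apoe at +0.66 (adjusted p = 0.748). Genes of interferon response and antigen presentation were higher in 20 of 30 (median +0.15, and +0.10 with all arrays). Cholesterol synthesis genes were higher in 9 of 17 (median +0.17, and +0.02 with all arrays, −0.10 without rTg4510 mouse 1). Over all genes 53.9% were above 0 without the 3 arrays, near the shares of the dementia risk and cholesterol synthesis genes.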
